A study of Mus musculus with 14 samples.

Results

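The genes described here are those by which the transmitter of a neuron is recognised: the vesicular glutamate transporters Slc17a6 and Slc17a8, the GABA genes Slc32a1, Gad1 and Gad2, the glycine transporter Slc6a5, the acetylcholine enzyme Chat, the catecholamine genes Th and Slc6a3, and the serotonin enzyme Tph2. To determine how H3K27me3 lies at these loci with and without the long non-coding RNA NeuID, the listed peaks that overlapped each gene body plus 5 kb on either side were taken (mm10, GENCODE genes). This gave 68 peaks of 23668 in the table. The data are H3K27me3 ChIP-seq from wild-type mouse primary hippocampal neurons, grown from CD1 embryos of both sexes and transfected with LNA gapmers in lipid nanoparticles, either a negative control gapmer (control) or one against NeuID (knockdown). Gapmers are short antisense oligonucleotides that lead RNase H to cut the RNA they bind. The labels give 6 ChIP libraries and 1 input library per group. A hippocampal culture is a mixture of neuron types with some glia, so fewer marked cells and less mark per cell cannot be told apart.

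The peak table holds group means only, as log2 of normalized reads per peak, which are the authors' means. It gives neither the value of a single library nor the depth, so no spread between libraries can be stated and none of the differences below was tested. A difference below is the knockdown mean minus the control mean on the log2 scale, and a difference beyond 1 in either direction is a rule of size, not of significance. A mean listed at 0 stands for 1 read or less, and no difference is given for such a peak. Means are totals over the width of a peak, so a strong peak below is one with many reads and is often a wide one, and levels of genes are compared per kb.

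H3K27me3 is set by EZH2 within Polycomb repressive complex 2 and is found over silent developmental and cell-type-specific genes, mostly at CpG-rich starts. Neurons that use one transmitter generally keep the genes of the others silent. Most hippocampal neurons release glutamate and load it with Slc17a7, a minority are GABAergic interneurons, and the cell bodies of cholinergic, dopaminergic and serotonergic neurons mostly lie in other brain regions. H3K27me3 is a chromatin mark and no measure of expression.

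The starts of the genes differ in CpG content, which is why the DNA just before 6 of them is shown. Each run is 150 bases ending before the most upstream annotated start near the principal one, read 5′ to 3′ on the strand of the gene from the RefSeq copy of GRCm38 (mm10), with every CpG in capitals. The first 5 lie before starts that carried a listed peak, the last before one that did not.

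Slc32a1 (chr2:158610608-158610757, plus strand): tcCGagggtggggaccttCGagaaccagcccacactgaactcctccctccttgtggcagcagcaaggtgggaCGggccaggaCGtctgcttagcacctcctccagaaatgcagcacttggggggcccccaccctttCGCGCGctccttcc
Gad2 (chr2:22622055-22622204, plus strand): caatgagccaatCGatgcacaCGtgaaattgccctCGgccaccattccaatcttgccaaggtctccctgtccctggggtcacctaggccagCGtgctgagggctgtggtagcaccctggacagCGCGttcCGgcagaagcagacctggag
Gad1 (chr2:70561892-70562041, plus strand): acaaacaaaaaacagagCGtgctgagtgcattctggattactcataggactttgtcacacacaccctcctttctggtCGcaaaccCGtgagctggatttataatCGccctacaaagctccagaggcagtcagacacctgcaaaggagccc
Slc6a5 (chr7:49909996-49910145, plus strand): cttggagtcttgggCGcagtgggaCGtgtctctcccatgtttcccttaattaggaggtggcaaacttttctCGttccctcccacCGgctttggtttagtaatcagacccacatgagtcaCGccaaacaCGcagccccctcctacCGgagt
Th (chr7:142900015-142900164, minus strand): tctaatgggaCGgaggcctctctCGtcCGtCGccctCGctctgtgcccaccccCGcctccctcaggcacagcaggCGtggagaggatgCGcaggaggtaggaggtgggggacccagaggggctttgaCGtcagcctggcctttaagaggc
Tph2 (chr10:115185023-115185172, minus strand): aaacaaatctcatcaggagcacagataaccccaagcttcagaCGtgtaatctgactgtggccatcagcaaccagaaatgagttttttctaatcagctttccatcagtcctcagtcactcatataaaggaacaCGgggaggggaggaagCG

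These windows held 7 CpGs before Slc32a1, 7 before Gad2, 4 before Gad1, 7 before Slc6a5, 9 before Th and 3 before Tph2. Of the windows not printed, those before Chat and Slc6a3, whose starts carried a peak, held 4 and 11. Those before Slc17a6 and Slc17a8, whose starts did not, held 6 and 4, so the counts did not separate the starts by peak. The median over 21938 windows of the same length before protein-coding starts was 6. The Th window also holds the cAMP response element TGACGTCA, which reads the same on both strands and contains one of the marked CpGs. Of all such windows, 1.79% hold these letters, and none of the other 9 genes' windows did.

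All 10 genes had at least 1 listed peak in their window, against 28.0% of 21951 protein-coding genes. In 7 of the 10 a peak lay over the principal start (Slc32a1, Gad1, Gad2, Slc6a5, Chat, Th and Slc6a3), against 5.38% of protein-coding genes. The starts of Slc17a6, Slc17a8 and Tph2 had none. The number of peaks per gene ran from 1 at Slc17a8 to 18 at Chat, and the length under peaks from 0.371 kb at Slc17a8 to 18.0 kb at Chat. By length under peaks, Chat ranked 57, Slc6a5 97 and Slc32a1 248 among the 6154 protein-coding genes that had a peak, whereas Tph2 ranked 3112 and Slc17a8 4663. No peak was shared by any pair of the 10 genes.

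**Figure D1:**
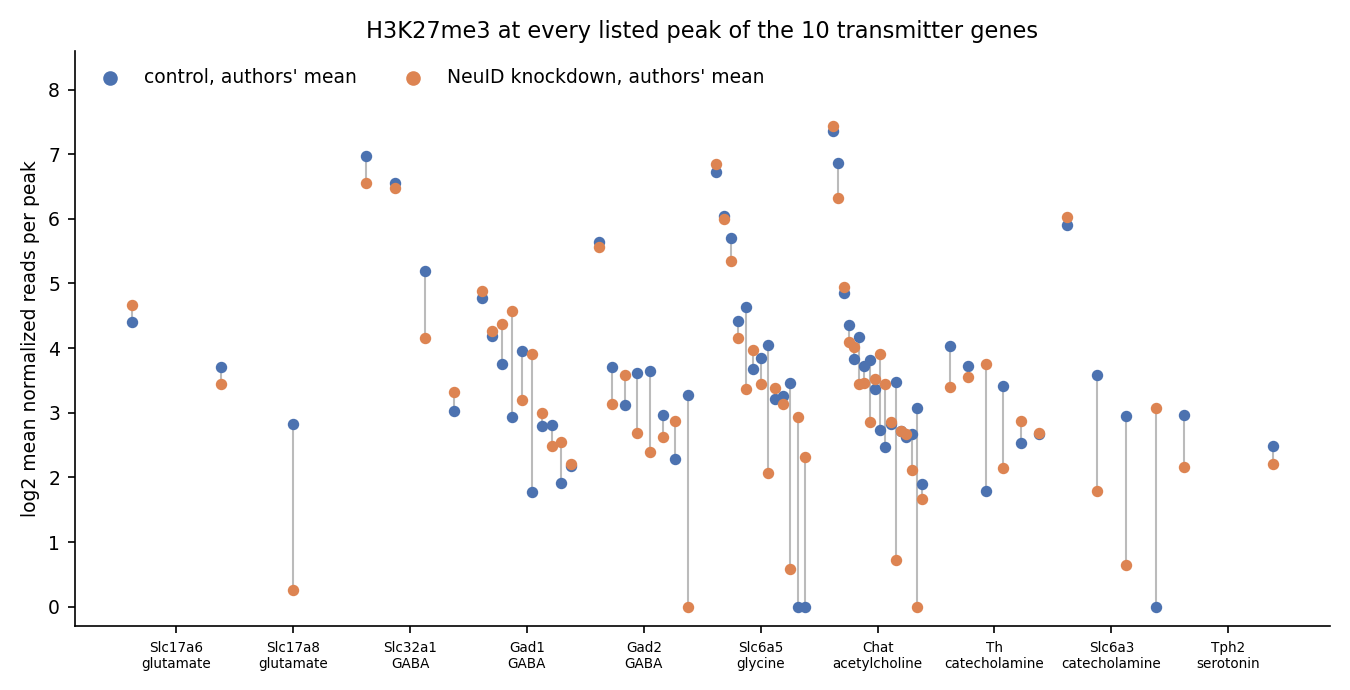
Every listed H3K27me3 peak of the 10 transmitter genes: each pair of points joined by a line is 1 peak, with the control mean and the knockdown mean in log2 normalized reads on the y axis, and peaks ordered within a gene by their overall mean. Points at 0 are means listed at 0. The strongest peaks of Chat, Slc32a1, Slc6a5, Slc6a3 and Gad2 lie above 5 in both groups, and the long lines belong to weaker peaks.

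Slc32a1, the vesicular transporter that loads both GABA and glycine, was the most densely marked GABA gene. Its start lay in a peak of 3927 bp (chr2:158608745-158612671), which spans the first exon with its coding sequence and the starts of the neighbouring transcripts Gm14204 and Gm14205. The mean there was 6.97 in control (126 reads) and 6.56 in knockdown (94.5 reads), a difference of -0.41. A second wide peak over the rest of the gene (chr2:158612893-158615494) had 6.56 and 6.47. Thus both peaks stayed within 0.5 of their control level. A narrower peak downstream of the gene (chr2:158615977-158617109), was the one Slc32a1 peak beyond 1, with 5.20 in control and 4.15 in knockdown. The weakest peak, also downstream, had 3.03 and 3.32. The 4 peaks covered 53.7% of the window and summed to 265 reads in control and 211 in knockdown, 79.7% of control.

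Gad2, which encodes the GAD65 form of the GABA-making enzyme, carried 1 strong peak and 7 weak ones. The strong peak covered the start (chr2:22621322-22623567, 2246 bp) with 5.64 in control and 5.57 in knockdown. The weaker peaks ran in both directions: of the 6 that were above 0 in both groups, 4 were lower in knockdown and 2 were higher. An intronic peak at chr2:22628081-22628441 had 3.65 in control and 2.40 in knockdown (-1.25). A peak downstream of the gene, 72250 bp from the start, had 3.28 in control and was listed at 0 in knockdown. Summed over the gene, knockdown had 79.6% of the control reads (119 and 94.6), a gap that lay mostly outside the peak over the start, since the other 7 peaks summed to 69.0 and 47.1 reads.

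Gad1, which encodes the GAD67 form of the same enzyme, differed from Gad2 in the direction of its values. Of its 10 peaks, 8 were higher in knockdown and 2 lower, where 10868 of 22097 peaks of the table were higher. Some of the 8 were near 0, such as 0.04 and 0.07, and the Gad1 median was 0.16. The peak over the start (chr2:70561982-70562825, 844 bp, in the 5′ UTR) had 2.93 in control (7.62 reads) and 4.58 in knockdown (23.9 reads), a difference of 1.65. An intronic peak 3493 bp from the start (chr2:70565535-70566097) had 1.78 and 3.91, a difference of 2.12, the highest among the 63 peaks above 0 in both groups. Between these lay the strongest Gad1 peak (chr2:70563387-70564425), over coding sequence, and its means of 4.78 and 4.89 were close. The next peak beyond the intronic one, chr2:70566249-70566617, went the other way with 3.95 and 3.20. The sum over Gad1 was 108 reads in control and 142 in knockdown, 131% of control, so that of the 3 GABA genes Slc32a1 and Gad2 had lower sums in knockdown and Gad1 a higher one. The means carry no error, and whether these directions differ beyond the spread between libraries was not tested. The antisense gene Gad1os overlaps the peak over the start and 3 others, and ChIP reads do not tell strands apart.

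Slc6a5, the plasma membrane glycine transporter of glycinergic neurons in brainstem and spinal cord, had 13 peaks over 14.2 kb. Around its start lay wide peaks whose means were close in the groups. The one over the start (chr7:49906581-49910432, 3852 bp) had 6.73 in control and 6.85 in knockdown. The next (chr7:49910493-49912592) had 6.05 and 6.00, and a further wide peak over coding sequence (chr7:49914399-49916511) had 5.71 and 5.35. Between them an intronic peak of 1320 bp at chr7:49912887-49914206 was lower by more than 1, with 4.64 and 3.36 (-1.28). Downstream within the gene the values scattered further. The peak at chr7:49917891-49918581 had 4.05 and 2.07 (-1.98), and that at chr7:49946549-49946990, over an exon, had 3.46 and 0.59 (-2.87, the lowest difference of all 63). Conversely, peaks at chr7:49933746-49934005 and chr7:49961620-49961842 were listed at 0 in control and had 2.94 and 2.31 in knockdown. In all, 8 of the 11 peaks above 0 in both groups were lower in knockdown, and the sum was 346 reads in control and 312 in knockdown, 90.2% of control.

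Chat, the enzyme that makes acetylcholine, held the widest peak among the 10 genes, which was also the one with the most reads in total. It covers the start (chr14:32461801-32466698, 4898 bp, 264 CpGs) and had 7.36 in control (164 reads) and 7.43 in knockdown (173 reads). Per kb this was 33.5 reads in control, below narrower peaks of Gad1 (41.9, chr2:70566249-70566617) and Gad2 (39.1, chr2:22618659-22618990) and the second wide peak of Slc32a1 (36.3). This is the cholinergic gene locus: the vesicular acetylcholine transporter Slc18a3 lies within the first intron of Chat, and the same peak covers its start and that of Gm2990. A second wide peak further into the gene (chr14:32458030-32461627, 3598 bp) had 6.87 and 6.32. The remaining 16 peaks were weaker, and those more than 10 kb from the start reached an overall mean of 4.90 at most. An intronic peak at chr14:32419635-32419992 had 3.48 in control and 0.72 in knockdown (-2.76), one at chr14:32455703-32456209 had 2.73 and 3.91 (1.18), and one downstream of the gene (chr14:32405164-32405369) had 3.07 in control and was listed at 0 in knockdown. The directions were nearly balanced, with 8 of 17 lower and 9 higher and a median difference of 0.01. The sum was 462 reads in control and 414 in knockdown (89.6% of control), and the second wide peak alone had 117 and 79.6 reads.

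**Figure D2:**
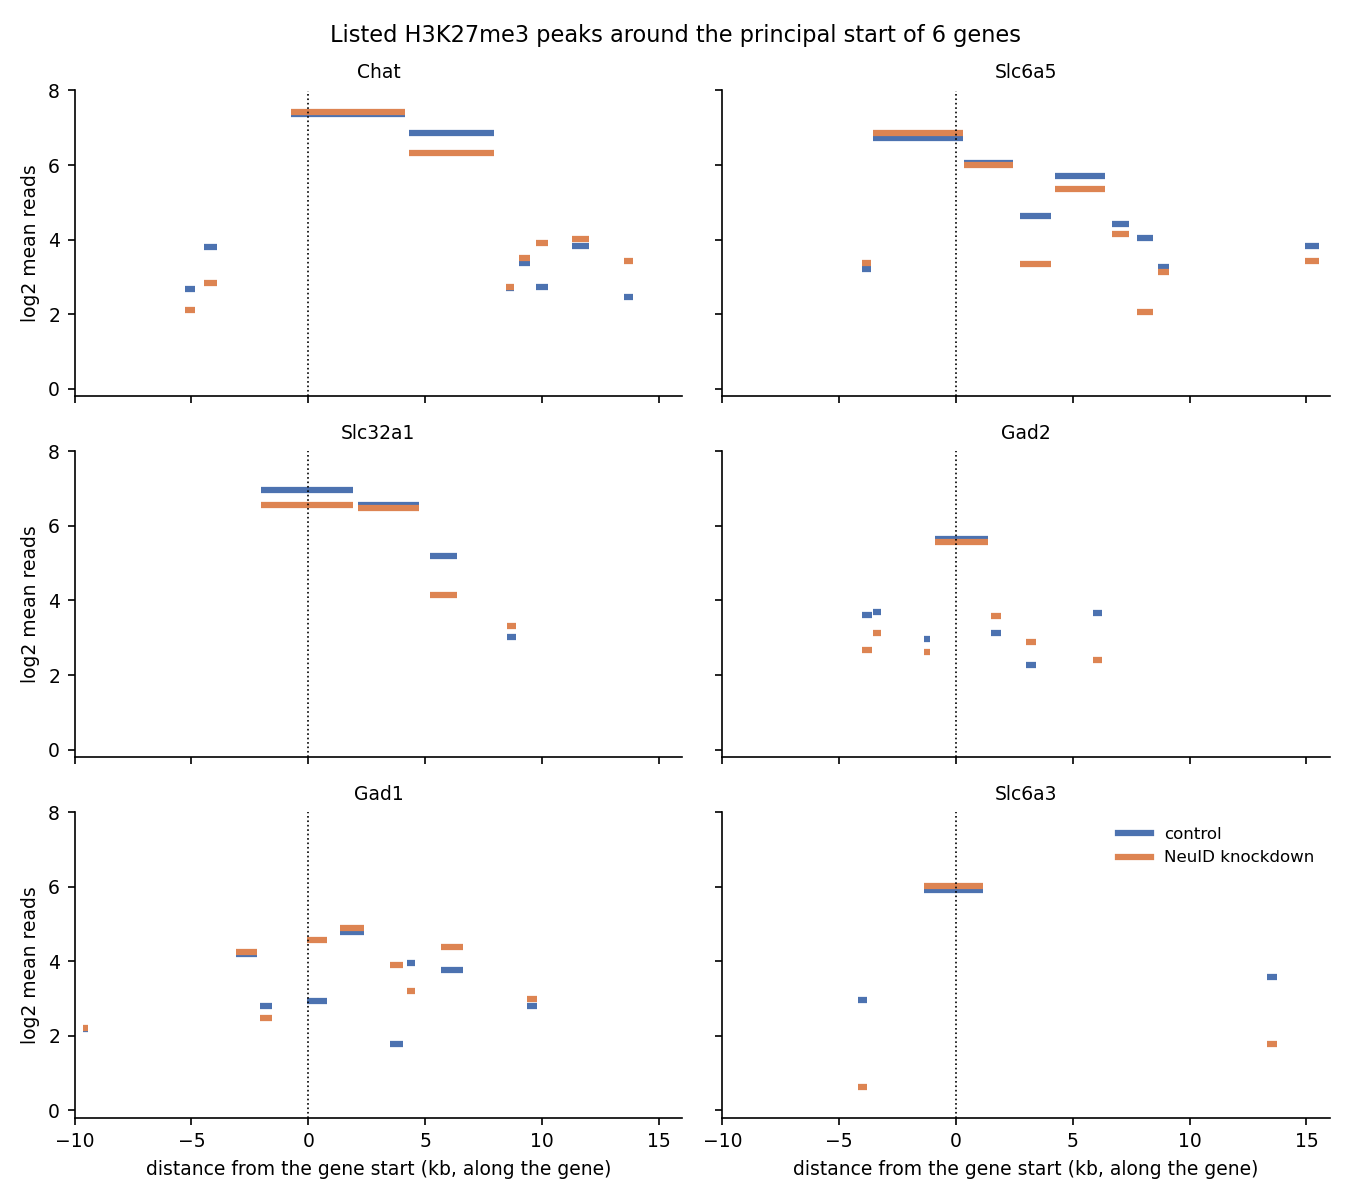
Listed peaks of 6 genes drawn by distance from the principal start in kb along the gene (x axis) and by their mean in log2 normalized reads (y axis), with 1 bar per peak and group, as long as the peak is wide. Peaks beyond the drawn range of the x axis are not shown. The bars over the start differ by less than 0.5 at Chat, Slc6a5, Slc32a1, Gad2 and Slc6a3. At Gad1 the bar over the start is at 2.93 in control and 4.58 in knockdown. Wider gaps away from the start are seen in both directions. Examples, control first, are Slc6a5 (4.64 and 3.36), downstream of Slc32a1 (5.20 and 4.15), Slc6a3 (2.95 and 0.64) and Gad1 (1.78 and 3.91).

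The glutamate genes Slc17a6 and Slc17a8 had little length under peaks, 1.84 and 0.371 kb. Per kb of peak their control levels, 18.6 and 19.2 reads, were not below that of Gad1 (17.7). Slc17a6, the transporter VGLUT2 of subcortical glutamatergic neurons, had 2 neighbouring peaks inside the gene and none over its start. The nearer one, 2369 bp from the start and over coding sequence (chr7:51624375-51625747, 1373 bp), had 4.40 in control and 4.66 in knockdown, and the other (chr7:51625765-51626231) had 3.70 and 3.45. The sum differed by 0.08. Slc17a8, the transporter VGLUT3 found in some cholinergic, serotonergic and GABAergic neurons, had a single intronic peak of 371 bp, 13283 bp from its start (chr10:89607600-89607970). Its mean was 2.83 in control (7.10 reads) and 0.26 in knockdown (1.20 reads), a difference of -2.57. This rests on few reads in 1 peak, and differences of that size occur among weak peaks in both directions across the table.

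At the catecholamine genes the peak over the start was wide at Slc6a3 and narrow at Th. The peak at Th had fewer reads in total, but in control its reads per kb were not below those at Slc6a3. Slc6a3, the dopamine transporter, had a peak of 2539 bp over its start (chr13:73535383-73537921) with 5.90 in control and 6.03 in knockdown. Its other 3 peaks were weak and all were beyond 1 or listed at 0. An upstream peak (chr13:73532549-73532922) had 2.95 and 0.64, an intronic peak (chr13:73550050-73550488) had 3.59 and 1.79, and a peak over coding sequence (chr13:73557148-73557374) was listed at 0 in control and had 3.08 in knockdown. Together these 3 summed to 20.8 reads in control and 13.4 in knockdown, and with the peak over the start, 59.5 and 65.5 reads, the sum over the gene was 98.3% of control. Th, the rate-limiting enzyme of catecholamine synthesis, had 6 narrow peaks, none wider than 550 bp. The one over the start (chr7:142899872-142900300, 429 bp), which contains the sequence printed above, had 3.42 in control (10.7 reads) and 2.15 in knockdown (4.44 reads), a difference of -1.27. Its neighbour 411 bp inside the gene (chr7:142899054-142899603), the strongest Th peak, had 4.04 and 3.40. By contrast a peak upstream of the principal start but within the longer Th gene model (chr7:142911216-142911682) had 1.79 and 3.75 (1.96). The sum over Th was 96.4% of control.

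Tph2, the neuronal enzyme that starts serotonin synthesis, had 2 intronic peaks, and the nearer was 39098 bp from the start. The peak at chr10:115094335-115094698 had 2.96 in control and 2.16 in knockdown, and that at chr10:115145631-115145924 had 2.49 and 2.21. Neither was beyond 1.

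Read per kb of peak, the control levels of the 10 genes ran from 17.7 reads per kb at Gad1 to 32.9 at Slc32a1. Chat stood at 25.7, Gad2 at 24.6 and Slc6a5 at 24.4. Only called peaks enter these levels, so their range is partly set by the calling and leaves out the rest of each gene. The median over the 6154 protein-coding genes with a peak was 18.6. In knockdown the order began again with Slc32a1 (26.2 reads per kb), while Gad1 stood at 23.3 beside Chat at 23.0, and Slc17a8 was lowest at 3.23. Since no library values are given, it is not known which neighbours in these orders differ beyond their spread.

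Across the 63 peaks above 0 in both groups, the median difference was -0.13, with quartiles of -0.60 and 0.16, and 35 were lower and 28 higher in knockdown. Over all 22097 such peaks of the table the median was -0.02, with quartiles of -0.73 and 0.70. The order-statistic interval of the transmitter genes' median ran from -0.31 to 0.04 (95%) and so covered the value for the whole table. It treats peaks as separate although many share a locus, and covers the scatter between peaks rather than between libraries. By the rule of size, 10 peaks were lower in knockdown by more than 1, where 18.5% of all such peaks were, and 4 were higher, where 18.4% were. Of the 68 peaks, 2 were listed at 0 in knockdown (3.35% of the table) and 3 in control (3.28%). The share beyond 1 in either direction, 22.2% here and 36.9% in the table, was thus no larger at the transmitter genes than elsewhere.

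Peaks were next split by strength. Of the 18 peaks with an overall mean of 4 or more, which lay in 7 genes and made up 63.6% of the length under peaks, 14 differed by less than 0.5 and 2 were beyond 1, at Slc32a1 and Slc6a5, both lower. That is 11.1%, against 14.1% of all peaks of this strength. Between 3 and 4, 7 of 24 were beyond 1 (29.2%, against 36.3%), and below 3, 5 of the 21 above 0 in both groups (23.8%, against 43.9%). All 5 peaks listed at 0 in a group belonged to the weakest class, as did most such peaks of the table. There, 716 of 794 listed at 0 in knockdown and 739 of 777 listed at 0 in control were in that class. A mean of 0 in a group itself lowers the overall mean. The 5 peaks also lay more than 10 kb from the start of their gene, a share not taken over other genes. The median absolute difference was 0.19 in the strong class, 0.60 in the middle class and 0.35 in the weak class, so the strong peaks differed least but the order below them was not one of strength. Over the table the same measures were 0.42, 0.72 and 0.86.

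**Figure D3:**
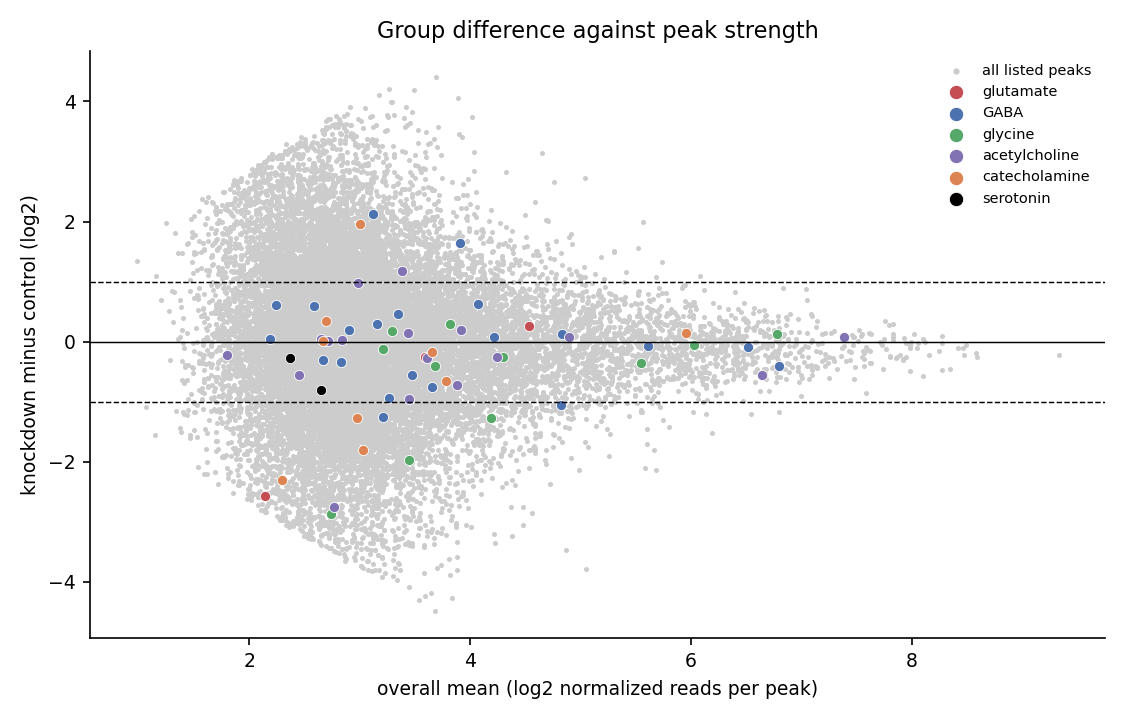
Knockdown minus control (log2, y axis) against the overall mean (log2 normalized reads, x axis) for all listed peaks above 0 in both groups (grey) and those of the 10 genes (coloured by transmitter); dashed lines mark differences of 1. Grey points spread widely on both sides at low means and narrow at high means, and the coloured points lie within that spread, between -2.87 and 2.12.

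Close neighbours were also compared. There were 26 pairs of consecutive peaks of one gene that lay less than 1 kb apart and were above 0 in both groups. Of these, 17 had differences of the same sign and in 0 pairs were both beyond 1. Such pairs were not counted over other genes, so neither count can be read as particular to these loci. By gene, the summed reads were lower in knockdown at 8 genes and higher at 2 (Slc17a6 and Gad1), with a median of -0.15. Among the 8, Th (-0.05) and Slc6a3 (-0.02) were near 0 and turned positive with another window (0.20 for Th with 10 kb, 0.09 for Slc6a3 with no flank). Of all 6154 protein-coding genes with a peak, 49.2% had lower sums, with a median of 0.02, and of those with a strong peak 56.0%, with a median of -0.06. Over the 1579 genes whose strongest peak was at 4 or more, the quartiles of the difference were -0.31 and 0.25, and those for the 4575 genes with weaker peaks were -0.62 and 0.90. Slc32a1 and Gad2 (both -0.33) lay just below the first of these ranges and Gad1 (0.39) above it, and Slc17a8 (-2.57) lay far below the second. With no flank, Slc32a1 (-0.26) and Gad2 (-0.07) lay inside the first range and Gad1 (0.41) above it. With peaks of at least 4, Gad1 (0.23) and Gad2 (-0.07) lay inside it and Slc32a1 (-0.35) below. The range itself was taken with the 5 kb flank and all peaks of a gene, and not again under these settings.

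Most of the length under peaks lay near starts. Of the 68 peaks, 44 lay within 10 kb of the principal start of their gene and held 47.7 kb, while the 24 farther ones held 12.4 kb. The same split was not made over other genes, and at a short gene the window itself keeps peaks near the start. Median overall means were 3.46 and 2.75. By position, 17 touched a coding exon, 31 lay in introns alone, 5 touched a UTR without coding sequence, 2 a non-coding exon, 8 lay upstream and 5 downstream of the gene. Of the peaks of the transmitter genes, 22.1% spanned 1 kb or more, as did 9.72% of all peaks. In base composition they were like the rest, with a median GC content of 50.6% (49.2% in the table) and a median CpG ratio, observed over expected, of 0.21 (0.22). The 18 strong ones had a CpG ratio of 0.45, against 0.47 for all strong peaks.

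At the starts themselves, the order by CpG content was not the order by the mark. The CpG ratio in the 1000 bp around the principal start was 0.76 at Slc32a1, 0.68 at Gad1, 0.63 at Gad2 and 0.61 at Slc17a6. Slc17a6 nonetheless had no peak over its start, and Gad1 only one of 2.93 in control. Chat had a peak of 7.36 in control at a ratio of 0.33, although that peak extends over the CpG-rich Slc18a3 and holds a ratio of 0.61 as a whole. Th and Slc17a8 both stood at 0.27, and the start of one carried a peak while that of the other did not. Over protein-coding genes, 6.55% of starts with a ratio of at least 0.6 had a peak, as did 4.32% of those below 0.6 and 1.67% of those below 0.4.

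**Figure D4:**
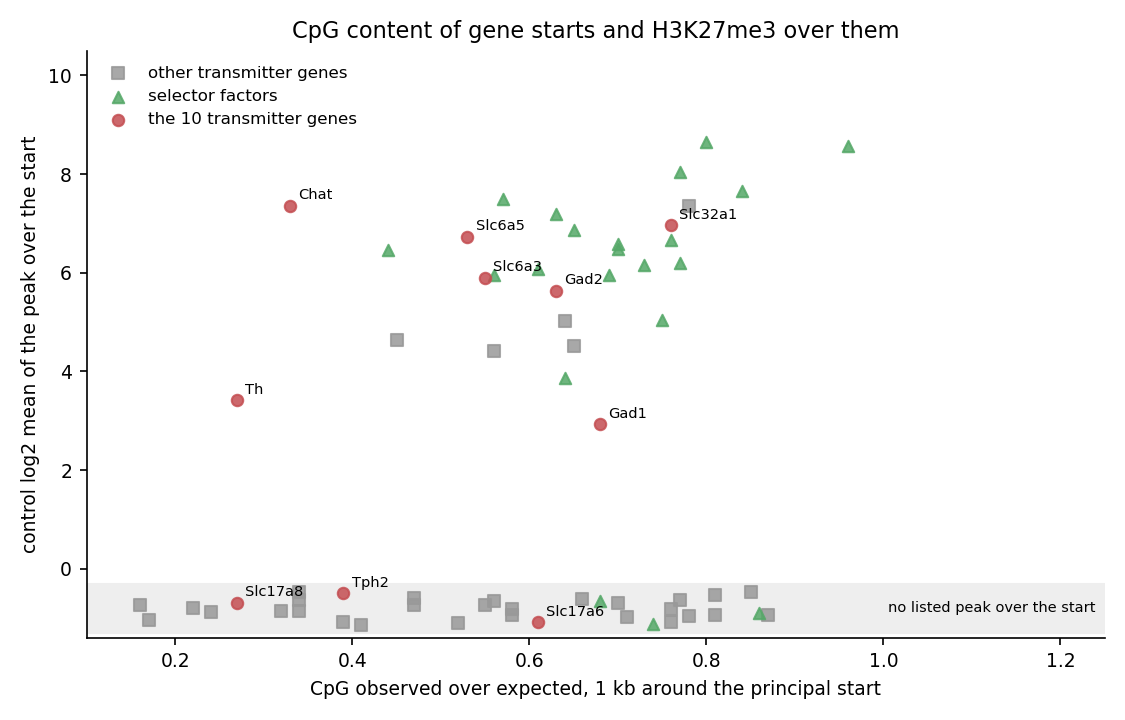
CpG observed over expected in the 1000 bp around the principal start (x axis) against the control log2 mean of the peak over that start (y axis), with 1 point per gene for the 10 transmitter genes, the other transmitter genes and the selector factors. Genes with no peak over the start are placed in the grey band, where height has no meaning. Chat sits at 7.36 with a CpG ratio of 0.33, and Slc17a6, with 0.61, lies in the band.

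The window of 5 kb has an edge. The peak just inside it lay 4815 bp from Chat (chr14:32470804-32471228) with 2.67 in control and 2.12 in knockdown. The peak just outside lay 5654 bp from Th (chr7:142936782-142937166) with 2.29 and 4.00.

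Beyond these 10 genes, the same counts were taken over other enzymes and transporters that make, load, take up or break down transmitters. Of 33 such genes, 17 had a peak and 5 a peak over the start (Slc18a2, Slc18a3, Slc6a7, Pnmt and Ache). Their 42 peaks had a median difference of 0.13, with 5 lower and 8 higher by more than 1 of the 41 above 0 in both groups. Over the table, 18.5% were lower and 18.4% higher by more than 1. Of the 42 peaks, 3 are those that Slc18a3 shares with Chat, and without them the median was 0.26. Slc17a7, the main glutamate transporter of the hippocampus, had 13 peaks over 10.1 kb, with none over its start. The nearest was 449 bp into the gene (chr7:45164398-45165080) with 1.99 in control and 3.75 in knockdown, and the strongest, 6.04 and 5.97, lay downstream of the gene over Pth2 (chr7:45180393-45182676). Another wide peak downstream of the gene, over Gfy (chr7:45176910-45178557), had 5.38 and 5.75. The sum over the Slc17a7 window was 259 and 277 reads. Both this sum and the 10.1 kb include the peaks downstream of the gene.

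Among the other genes with a strong peak, Pnmt, the enzyme that makes adrenaline, had the lowest difference of the sum (-1.11), and its peak over the start (chr11:98386300-98387342) had 4.64 in control and 3.16 in knockdown. The amino acid transporter Slc6a7 followed with -0.44. Ache, which breaks down acetylcholine, had the highest difference, and its only peak, over the start (chr5:137287065-137288701), had 4.51 and 5.63 (1.13). The noradrenaline transporter Slc6a2 was next with 56.2 reads in control and 96.4 in knockdown (0.78). At the peak 100 bp from its start (chr8:92960179-92962276) the means were 5.44 and 6.36.

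Transcription factor genes that select transmitter identity during development carried the mark over most of their starts. All 21 had a peak and 18 a peak over the start, and together they held 159 peaks, 91 of them with an overall mean of 4 or more. Pax2, which acts in GABAergic neurons of the hindbrain and spinal cord, summed to 706 reads in control and 665 in knockdown. Lmx1b, a factor of serotonergic and dopaminergic neurons, had 704 and 652, and Lbx1, a factor of dorsal spinal neurons, 635 and 539. The strongest Lbx1 peak spanned 11689 bp and had 8.66 and 8.48. Of the 157 peaks above 0 in both groups, 19 were lower and 12 higher by more than 1. Over all such peaks of the table, 18.5% were lower and 18.4% higher. The median of the 157 was -0.18, against -0.02 over the table and -0.11 over its strong peaks. Sums in knockdown were lower at 16 genes and higher at 5. Among all protein-coding genes with a strong peak, 56.0% had lower sums. The lowest difference of the sum was at Pitx3 (-0.51), a factor of dopaminergic neurons, and the highest were at Ptf1a (0.43), a factor of GABAergic fate, and Phox2a (0.32).

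H3K27me3 was also read at the starts of cell type markers. Since 5.38% of all protein-coding starts carried a peak, a marker start without one says nothing of which cells were present, and the labelled cell type could not be checked in this way. No start of 8 general neuron markers, 6 excitatory markers, 5 astrocyte markers or 4 microglia markers carried a peak. Of 8 GABAergic markers, which include Gad1, Gad2 and Slc32a1, 6 did, as did 2 of 6 oligodendrocyte-lineage markers and 2 of 5 non-neural markers.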

How the data were processed

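Per the labels and the methods of the study, chromatin was precipitated with an antibody to H3K27me3 (Millipore), and reads were aligned with Bowtie2 to mm10 (GRCm38) and called as broad peaks with MACS2. The authors merged them in DiffBind with its DESeq2 option and deposited, for each peak, the log2 mean of normalized reads over all libraries, over control and over knockdown. The scaling of reads, the use of the input and the handling of duplicates are not given in the sources used here. In 21195 peaks whose group means differed enough to solve it, the overall mean fitted weights of 6 control and 5 knockdown libraries (control share within 0.005 of the median of 0.545), although the labels list 6 of each. Columns with the authors' fold change, p-value and FDR were not used, so only sizes are given.

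Peaks were assigned to GENCODE genes by overlap with the gene body plus 5 kb, with the start taken from the principal transcript. Sums per gene add the group means as reads, with a listed 0 counted as 1 read. The CpG ratio is observed over expected. Sequences and base composition came from the RefSeq copy of GRCm38. Every peak of the 10 genes was counted. Those given in full are, per gene, the strongest, the nearest to the start, and each peak beyond 1 or listed at 0, and a few neighbours chosen after their values were seen. From the other lists, the 3 genes with the highest control sum and, among genes with a peak of at least 4, the 2 with the largest difference in each direction were named. One result under this rule is not reported here. The genes, lists and limits were chosen with earlier results of these data known. Python 3.11.15, pandas 2.3.3 and numpy 2.4.6 were used. The counting was tested on simulated data.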

Additional observations from a re-analysis of the deposited data

How the results depend on the processing

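Changing the limit changed the counts of peaks beyond it. With a limit of 0.5, 19 peaks of the transmitter genes were lower and 8 higher in knockdown (32.0% and 30.9% of the table). With 1.5, 6 were lower and 3 higher (10.4% of the table each), and with 2, 4 were lower and 1 higher (5.63% and 5.53%). Where the overall mean was 4 or more, 2 were lower and 0 higher, and the same counts, 2 and 0, held for peaks at least 1 kb wide. The median difference stayed between -0.15 and 0.04 under all alternatives, inside its interval, and all 10 genes kept a peak in every window tried. As a ratio of knockdown to control, the sum per gene moved by no more than 1.5 times in each of 37 alternatives. On the log2 scale, small differences moved by more than that. Gad2 went from -0.33 to -0.07 with no flank or with peaks of at least 4. With peaks of at least 4, Slc17a6 went from 0.08 to 0.26 and Gad1 from 0.39 to 0.23. The sign changed in 3: Th was 0.20 with a window of 10 kb, and Slc6a3 was 0.14 with peaks of at least 4 and 0.09 with no flank. Slc17a8, Th and Tph2 have no peak of at least 4 and gave no value there. No paired analysis was possible because the table holds group means and no library values, and leaving out a replicate was not possible for the same reason. The depth is not given, so what it limits cannot be stated beyond the size of the means: 3 on the log2 scale is 8 reads.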
